A study of Mus musculus with 9 samples.

Results

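The acute-phase genes examined here were Saa1, Saa2, Saa3, Lcn2, Hp, Orm1, Orm2, Lbp, Ptx3 and Cp, taken by their gene symbols from the count table. Each symbol named 1 of the 52550 genes in the table, and all 10 were among the 22430 genes with enough counts to be tested. The samples were dermis of the ear from wild-type C57BL/6 mice (C57BL/6J in the study methods) of 8 weeks, in 3 groups of 3 libraries. VAS+H2O mice received vaseline on the skin for 5 days and water by gavage for 10 days. IMQ+H2O mice received imiquimod cream, which activates Toll-like receptor 7 and gives a psoriasis-like inflammation, in place of vaseline. IMQ+XYF mice received imiquimod cream and gavage of 200 µl of Xiao-Yin-Fang (XYF), a decoction of 5 herbs, at 23.3 mg/g. The study's methods give 1 gavage daily, while its figure captions give 2 daily. The gavage began 5 days ahead of the cream in every group. The study's methods state that RNA came from whole ear sheets of 2 mice. Neither the methods nor the labels say whether this holds per library or per group. The study's figure captions give n = 3 for each group and do not say what n counts. The 3 libraries of a group may therefore not be separate animals, and p-values measure only the spread between these libraries.

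Acute-phase proteins are secreted plasma proteins whose synthesis rises in inflammation, mostly in the liver under IL-6, IL-1 and the transcription factors STAT3, C/EBP and NF-κB. Several of them are also made at the site of inflammation, where they bind microbial products, free haem or iron and act on incoming leukocytes. In mouse skin, serum amyloid A and lipocalin 2 are well-known products of inflamed epidermis and of infiltrating myeloid cells.

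Total counts ran from 28756305 to 79836881 per library, and the 10 genes together took 0.0336% to 0.0429% of them in VAS+H2O, 0.0871% to 0.204% in IMQ+H2O and 0.0827% to 0.134% in IMQ+XYF. A count of 0 allows up to 3 counts, or 0.0373 to 0.103 CPM (read counts scaled to a common library size) depending on the library, and covers counting error only. Col1a1, a collagen of dermal fibroblasts, lay between 1038 and 4982 CPM. The sheets also held RNA of other tissue, and the levels of its markers differed between groups. The basal keratinocyte gene Krt14 lay between 724 and 3367 CPM and the cartilage gene Col2a1 between 13.9 and 147 CPM. Summed cartilage markers were 1937 to 4228 CPM in VAS+H2O, 595 to 1002 in IMQ+H2O and 1171 to 3210 in IMQ+XYF. Of the 11 cartilage genes tested, 2 fell in IMQ+H2O against VAS+H2O by edgeR and 11 by DESeq2, and all 11 were lower without overlap. Of all genes, 0.994% changed by edgeR and 3.80% by DESeq2, and 31.5% did not overlap, in either direction. In IMQ+XYF against IMQ+H2O, 9 of the 11 cartilage genes were higher at an unadjusted p under 0.05, and 8 were higher without overlap. There DESeq2 called 7 of the 11, all higher, and edgeR none. In the same comparison 10 of 11 skeletal muscle genes were lower at an unadjusted p under 0.05, and DESeq2 called 2 of them. Of all genes, 11.7% were under that limit, 18.0% did not overlap and DESeq2 called 1.17%, in either direction. Endothelial sums were 712 to 1441, 1589 to 1859 and 598 to 1559 CPM, and skeletal muscle sums 658 to 3183, 1467 to 3213 and 141 to 1010 CPM, with no gene of either list called by edgeR in any comparison. The part of these shifts in the values of the acute-phase genes was not tested. Of 14 hepatocyte markers, 7 had enough counts to be tested, and Hnf4a, Fabp1 and Serpina1c had no count in any library. The summed hepatocyte markers reached 7.53 to 33.7 CPM, with albumin (Alb) at 3.27 to 13.4 CPM.

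The 3 Saa genes lie within one stretch of chromosome 7. The 250 bases before their start sites are shown because Saa1, Saa2 and Saa3 were higher together in the imiquimod groups. The sequences are from RefSeq (GRCm38.p6), 5′ to 3′ on the strand of the gene, cut to the bases outside annotated exons. Capitals mark matches to the C/EBP-type letters TTGCNNAA on either strand.
Saa1 (chr7:46742981-46743230, minus strand): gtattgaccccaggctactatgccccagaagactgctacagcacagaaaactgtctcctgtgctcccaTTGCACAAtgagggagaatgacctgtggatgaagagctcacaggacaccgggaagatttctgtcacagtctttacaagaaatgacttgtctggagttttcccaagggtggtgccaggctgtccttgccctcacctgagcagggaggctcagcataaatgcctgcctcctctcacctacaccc
Saa2 (chr7:46751583-46751789, plus strand): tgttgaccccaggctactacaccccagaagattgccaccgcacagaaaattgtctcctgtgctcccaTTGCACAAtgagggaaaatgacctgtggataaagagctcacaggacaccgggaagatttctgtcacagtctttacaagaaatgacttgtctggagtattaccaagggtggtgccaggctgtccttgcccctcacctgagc
Saa3 (chr7:46715701-46715926, minus strand): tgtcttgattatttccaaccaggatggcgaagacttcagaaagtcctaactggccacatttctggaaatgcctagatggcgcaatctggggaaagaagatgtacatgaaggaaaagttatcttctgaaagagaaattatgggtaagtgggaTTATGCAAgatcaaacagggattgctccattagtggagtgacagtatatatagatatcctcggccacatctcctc

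Of the 10 genes, 7 had a promoter entry, and Hp, Orm1 and Lbp did not. The 8 entries of these 7 genes (Cp has a second start) were searched over their 250 bases before the start for 3 motifs on both strands, letters that were chosen with the sequences known. The C/EBP-type letters TTGCNNAA were found in 7 of the 8 entries and in at least 1 entry of each gene, against 9.56% of all 32851 promoter entries. Saa1 and Saa2 shared TTGCACAA, 182 and 183 bases before the start, while the match of Saa3 was TTATGCAA, 99 bases before the start. Lcn2 held TTGCTCAA, Orm2 TTGCGCAA, Ptx3 TTGTGCAA and Cp TTTTGCAA. Neither the STAT-type letters TTCNNNGAA, present in 7.02% of all entries, nor the NF-κB consensus, present in 7.25%, had a match in any of the 8. A match describes the letters and is no evidence of binding.

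Saa1 (ENSMUSG00000074115, chromosome 7, 46740497 to 46742980) and Saa2 (ENSMUSG00000057465, chromosome 7, 46751790 to 46754313) encode the serum amyloid A apolipoproteins of high-density lipoprotein that in mouse are made chiefly by the liver. Their coding sequences of 369 bases differ at 18 positions (95.1% identity), and of the 50-base windows of the Saa1 transcript 13.2% occur unchanged in that of Saa2. How the authors' counting treated reads that match both was not stated, so the split between the pair is uncertain. The 150 coding bases with the most differences are printed from the annotated transcripts (GENCODE vM21), with the differing bases in capitals.
Saa1 (coding bases 40 to 189): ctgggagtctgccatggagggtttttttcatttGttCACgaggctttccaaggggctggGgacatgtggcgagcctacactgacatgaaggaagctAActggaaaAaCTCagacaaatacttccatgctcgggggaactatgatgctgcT
Saa2 (coding bases 40 to 189): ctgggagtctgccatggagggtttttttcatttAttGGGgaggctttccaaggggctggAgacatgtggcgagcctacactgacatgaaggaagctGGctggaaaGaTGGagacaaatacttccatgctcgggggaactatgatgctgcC

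Saa1 measured 0.170, 0.667 and 0.630 CPM in VAS+H2O, 3.86, 4.88 and 9.91 in IMQ+H2O, and 3.71, 1.12 and 4.03 in IMQ+XYF. Saa2 measured 0.0728, 0.500 and 0.188 CPM in VAS+H2O, 2.45, 4.83 and 6.01 in IMQ+H2O, and 3.46, 0.712 and 3.52 in IMQ+XYF. Both genes were near the detection limit in the vaseline group, where the lowest library held 7 counts of Saa1 and 3 of Saa2, and no imiquimod library was as low as any vaseline library. The second IMQ+XYF library was the lowest imiquimod library for both.

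Saa3 (ENSMUSG00000040026, chromosome 7, 46711998 to 46715700) encodes the serum amyloid A that mouse macrophages, adipocytes and epithelia make locally. It is less alike the other members, with 76.6% coding identity to Saa1 and 75.6% to Saa2. It measured 1.24, 1.75 and 0.670 CPM in VAS+H2O, 64.5, 334 and 752 in IMQ+H2O, and 177, 75.8 and 180 in IMQ+XYF. Saa3 rose from the level of a hardly expressed gene, with 50 to 63 counts per vaseline library, to as many as 38578 counts in the third IMQ+H2O library. Within IMQ+H2O its highest library was 11.7 times its lowest.

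Lcn2 (ENSMUSG00000026822, chromosome 2, 32384633 to 32388252) encodes lipocalin 2, which withholds iron from bacteria by binding their siderophores. It measured 20.5, 32.2 and 22.4 CPM in VAS+H2O, 188, 215 and 296 in IMQ+H2O, and 147, 140 and 163 in IMQ+XYF. The 3 groups did not overlap for Lcn2, with IMQ+H2O highest and IMQ+XYF between the other two. Within IMQ+XYF the highest library was only 1.16 times the lowest.

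Hp (ENSMUSG00000031722, chromosome 8, 109575128 to 109579172) encodes haptoglobin, which captures free haemoglobin. It measured 36.7, 90.5 and 55.1 CPM in VAS+H2O, 212, 399 and 290 in IMQ+H2O, and 541, 216 and 389 in IMQ+XYF. Every imiquimod library was above every vaseline library, and the imiquimod groups overlapped with each other. Cp (ENSMUSG00000003617, chromosome 3, 19957054 to 20009145) encodes ceruloplasmin, the copper-carrying ferroxidase that works with the iron exporter ferroportin. It measured 123, 114 and 120 CPM in VAS+H2O, 152, 180 and 172 in IMQ+H2O, and 168, 161 and 149 in IMQ+XYF. Cp moved least of the genes whose imiquimod and vaseline libraries did not overlap, and it was also the steadiest within groups. It shares 108 exonic bases with Hps3 on the other strand, and reads there may have been assigned to either gene, since the counting was not stated to use strand.

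Lbp (ENSMUSG00000016024, chromosome 2, 158306493 to 158332852) encodes the lipopolysaccharide-binding protein that passes endotoxin to CD14 and Toll-like receptor 4. It measured 127, 132 and 121 CPM in VAS+H2O, 210, 224 and 320 in IMQ+H2O, and 158, 171 and 232 in IMQ+XYF. All imiquimod libraries were above the vaseline libraries. Ptx3 (ENSMUSG00000027832, chromosome 3, 66219910 to 66225805) encodes the long pentraxin that coats microbes for uptake. It measured 10.6, 55.2 and 32.7 CPM in VAS+H2O, 22.4, 104 and 215 in IMQ+H2O, and 88.7, 42.1 and 152 in IMQ+XYF. The groups overlapped, because the first IMQ+H2O library was below 2 of the 3 vaseline libraries.

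Orm1 (ENSMUSG00000039196, chromosome 4, 63344560 to 63348163) and Orm2 (ENSMUSG00000061540, chromosome 4, 63362449 to 63365878) encode α1-acid glycoproteins, plasma carriers of small lipophilic molecules. Their coding sequences share 89.9% of bases, and 20.4% of the 50-base windows of the Orm1 transcript occur unchanged in that of Orm2, so the split of reads between them is uncertain too. Orm1 measured 14.5, 15.9 and 5.95 CPM in VAS+H2O, 5.86, 9.75 and 8.13 in IMQ+H2O, and 42.7, 8.38 and 7.79 in IMQ+XYF. A single library, the first of IMQ+XYF, stood above the other 8, which lay between 5.86 and 15.9 CPM. Orm2 had 0, 12 and 22 counts in VAS+H2O, 3, 23 and 3 in IMQ+H2O, and 37, 10 and 15 in IMQ+XYF. No difference between groups was detectable at these counts.

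**Figure D1:**
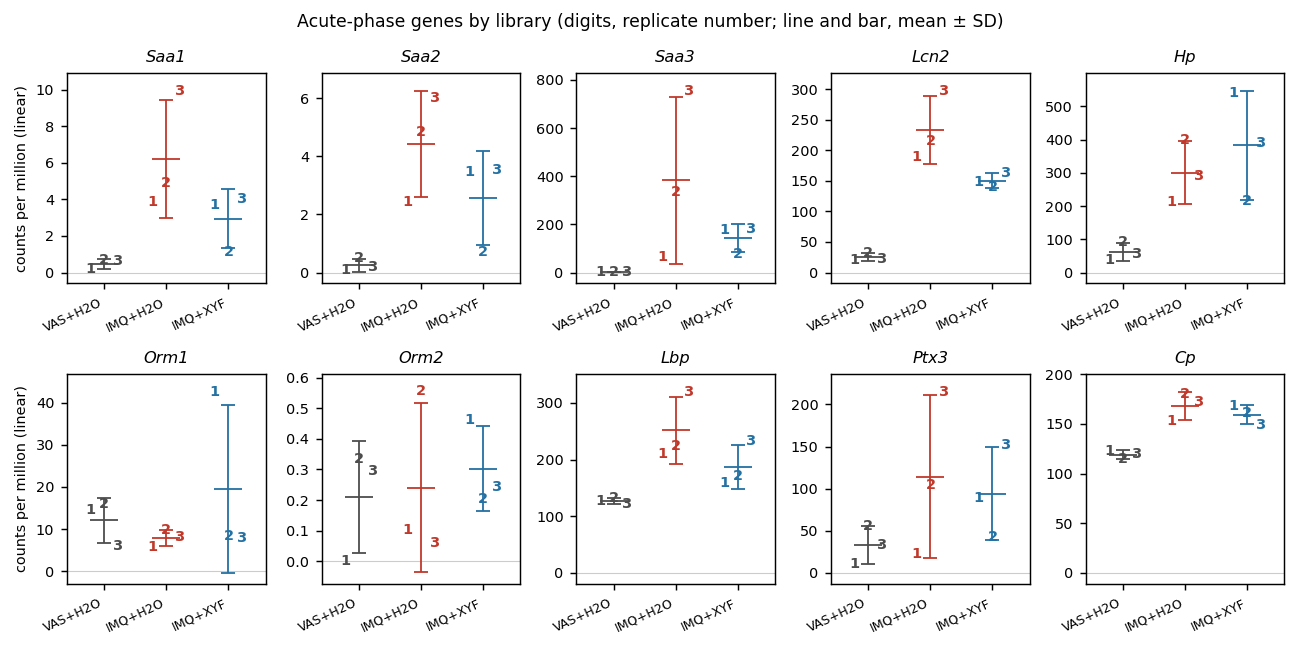
CPM (linear vertical axes, one per gene) of the 10 acute-phase genes in the 9 libraries; digits mark replicate 1, 2 or 3 of a group, and the line and bar give the mean and SD of 3 libraries. Saa3 reached 752 CPM in 1 IMQ+H2O library, Lcn2 separated all 3 groups, and the Orm1 value of 42.7 CPM came from a single IMQ+XYF library.

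The first comparison asked which of these genes changed in the psoriasis-like model. IMQ+H2O against VAS+H2O, 5 of the 10 genes rose and none fell: Saa3, Saa2, Saa1, Lcn2 and Hp. A gene was called where the Benjamini-Hochberg adjusted p of edgeR's quasi-likelihood test was 0.05 or lower and the absolute log2 fold change was 1 or higher, and of all genes tested 0.994% were called in either direction. The imiquimod and vaseline libraries did not overlap for 7 of the 10 genes, all higher, against 31.5% of all genes in either direction. The median log2 fold change was 2.05 over the 10 genes and -0.023 over all genes.

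Saa3 had the largest log2 fold change of the 10, 8.34 (95% interval 6.04 to 10.6, adjusted p = 0.0162), or 325-fold. Saa2 rose by 4.17 (SE 0.80, adjusted p = 0.0461) and Saa1 by 3.65 (SE 0.67, adjusted p = 0.0421) on the log2 scale. Summed as 1 gene, Saa1 and Saa2 rose by 3.84 (adjusted p = 0.0429), so the call did not rest on how reads were split. Lcn2 rose by 3.22 (SE 0.23), or 9.31-fold, and had the smallest adjusted p of the 10, 0.00255. Hp rose by 2.31 (SE 0.43, adjusted p = 0.0435), or 4.95-fold.

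Lbp and Cp passed the limit on the adjusted p but not that on the fold. The log2 fold change of Lbp was 0.99 (SE 0.19, adjusted p = 0.0495) and that of Cp 0.50 (SE 0.097, adjusted p = 0.0484). Ptx3 had a log2 fold change of 1.80 with an interval of -0.10 to 3.69 (adjusted p = 0.260). Orm1 had -0.61 (interval -2.11 to 0.89) and Orm2 0.19 (interval -2.29 to 2.66), and neither interval shows whether these genes stayed level. With the Wald test of DESeq2 6 of the 10 were called, the 5 above and Lbp at a log2 fold change of 1.01, against 3.80% of all genes.

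Apart from Lcn2, these calls changed when a library was left out, which also lowers the degrees of freedom. Leaving out 1 library at a time left 1 to 6 of the 10 called: 1 without any 1 of the VAS+H2O libraries or the second IMQ+H2O library, 2 without the first or the third IMQ+H2O library or the third IMQ+XYF library, 5 without the first IMQ+XYF library and 6 without the second. Lcn2 stayed called each time, with an adjusted p of at most 0.0207 without a library. Saa3 passed without the first (0.00714) or the third (0.0325) IMQ+H2O library and missed the limit without the second (0.0511) and without any vaseline library (0.0506, 0.0653 and 0.0765). Over all alternatives the log2 fold change ran from 3.03 to 3.44 for Lcn2, 2.05 to 2.71 for Hp, 3.17 to 3.91 for Saa1, 3.76 to 4.98 for Saa2 and 7.41 to 8.84 for Saa3. The Saa3 value of 7.41 was without the third IMQ+H2O library and the Saa2 value of 4.98 without the second VAS+H2O library.

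The second comparison asked what XYF changed in the model. IMQ+XYF against IMQ+H2O, none of the 10 genes was called by edgeR or by DESeq2, where 0.00892% and 1.17% of all genes were, and 1 of the 10 (Lcn2) had an unadjusted p under 0.05, against 11.7% of all genes. The groups did not overlap for 1 of the 10, also Lcn2 and lower, against 18.0% of all genes in either direction. The median log2 fold change over the 10 genes was -0.35, against 0.0054 over all genes.

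The log2 fold change of Lcn2 was -0.63 with a 95% interval of -1.11 to -0.16 (unadjusted p = 0.0142 and adjusted p = 0.367 by edgeR's test), and it was -0.40 without the third IMQ+H2O library. For the serum amyloid genes the intervals were wide: -1.41 (-3.08 to 0.25) for Saa3, -1.07 (-2.41 to 0.26) for Saa1 and -0.79 (-2.30 to 0.73) for Saa2. The Saa3 value was -0.44 without the third IMQ+H2O library, the highest of its group. Lbp had -0.43 (-0.86 to 0.0046). Hp leaned the other way, at 0.35 (-0.58 to 1.27), which was 0.0098 without the first IMQ+XYF library. Cp had -0.079, and its interval of -0.30 to 0.14 was the narrowest of the 10. Ptx3 had -0.28 (-2.11 to 1.56), which became 0.60 without the third IMQ+H2O library and 0.10 without the second IMQ+XYF library. Orm1 had 1.31 (-0.20 to 2.82), which was 0.030 without the first IMQ+XYF library. Orm2 had 0.34 (-2.06 to 2.74). The interval of Saa3 thus includes no change as well as a difference of -3.08.

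The third comparison set the XYF-treated model against the vaseline control, whose libraries it shares with the first. IMQ+XYF against VAS+H2O, Saa3, Lcn2 and Hp rose and no gene of the 10 fell, and 1.20% of all genes were called. Again 7 of the 10 did not overlap, all higher, against 22.1% of all genes in either direction. Saa3 rose by 6.93 (SE 0.96, adjusted p = 0.0208), Hp by 2.65 (SE 0.43, adjusted p = 0.0309) and Lcn2 by 2.58 (SE 0.22, adjusted p = 0.0107) on the log2 scale. Saa2 at 3.39 (adjusted p = 0.0663) and Saa1 at 2.58 (adjusted p = 0.0782) missed the limit with edgeR. They were called by DESeq2, which called 5 of the 10 and 3.23% of all genes. The log2 fold changes of the remaining genes were 1.52 for Ptx3, 0.70 for Orm1, 0.56 for Lbp, 0.52 for Orm2 and 0.42 for Cp.

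In this comparison, too, most calls changed when a library was left out. Lcn2 stayed called without each library in turn, with an adjusted p of at most 0.0410. Only Lcn2 of the 10 was called without any 1 of the VAS+H2O libraries or without the first or the third IMQ+XYF library. Without the second or the third IMQ+H2O library 2 were called, and without the first 3. Without the second IMQ+XYF library 5 were called, Saa1 (adjusted p = 0.0235) and Saa2 (adjusted p = 0.0156) being added. The Orm1 value turned to -0.58 without the first IMQ+XYF library.

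**Figure D2:**
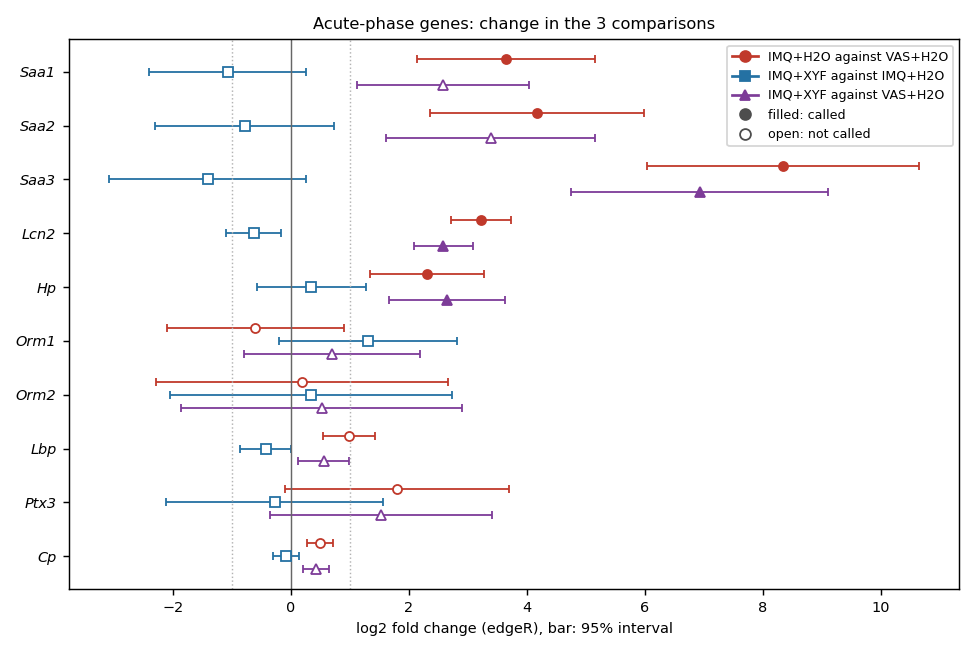
Log2 fold changes (horizontal axis) of the 10 acute-phase genes in the 3 comparisons, with 95% intervals; filled symbols were called by edgeR and dotted lines mark a log2 fold change of 1 in either direction. Saa3 had the largest rises, 8.34 and 6.93, and no IMQ+XYF against IMQ+H2O symbol is filled.

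Levels between genes were compared per kilobase of exon, as CPM divided by gene length. With all annotated exons of a gene joined, the vaseline order was Hp (37.8 ± 17.0 CPM per kilobase, SD, n = 3), Lbp (26.3 ± 1.14), Orm1 (15.6 ± 6.95), Cp (12.4 ± 0.466), Ptx3 (12.2 ± 8.30) and Lcn2 (9.55 ± 2.39), with Saa3 (0.468 ± 0.207), Orm2 (0.270 ± 0.235), Saa1 (0.197 ± 0.112) and Saa2 (0.101 ± 0.0879) far below. Of these neighbours only Lbp and Orm1, and Lcn2 and Saa3, did not overlap over the 3 libraries. In IMQ+H2O the order was Hp (187 ± 58.5), Saa3 (147 ± 133), Lcn2 (88.9 ± 21.4), Lbp (52.1 ± 12.4), Ptx3 (42.5 ± 36.1), Cp (17.6 ± 1.49), Orm1 (10.2 ± 2.53), Saa1 (2.51 ± 1.31), Saa2 (1.76 ± 0.721) and Orm2 (0.310 ± 0.357). There Hp overlapped with Saa3 and Saa3 with Lcn2, while Lcn2 stood clear of Lbp, Cp of Orm1, Orm1 of Saa1, and Saa2 of Orm2. In IMQ+XYF Hp (238 ± 101) stood clear of Lcn2 (57.3 ± 4.50) and Saa3 (55.3 ± 22.7). Lbp (38.7 ± 8.19), Ptx3 (35.1 ± 20.5), Orm1 (25.3 ± 25.8) and Cp (16.6 ± 1.02) followed with overlapping libraries, and Saa1 (1.19 ± 0.644), Saa2 (1.02 ± 0.637) and Orm2 (0.390 ± 0.178) were lowest.

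Saa3 moved from the 23.9th percentile of tested genes in VAS+H2O to the 98.7th in IMQ+H2O and the 96.5th in IMQ+XYF by this measure, while Hp was at the 94.9th already in VAS+H2O. These positions depend on the gene length used. The Saa genes have annotated transcripts with retained introns, so the joined exons of Saa3 measure 2606 bases and its principal transcript 555. With the principal transcript as the length, Saa3 led in IMQ+H2O (691 ± 625 CPM per kilobase), followed by Lcn2 (255 ± 61.5) and Hp (224 ± 69.9), and these 3 again overlapped. Orm1 (10.2 ± 2.53) then overlapped with Saa1 (10.2 ± 5.32) in IMQ+H2O, and in IMQ+XYF Hp (284 ± 121) overlapped with Saa3 (260 ± 107), and Saa3 with Lcn2 (164 ± 12.9). In VAS+H2O, Lbp (50.3 ± 2.18) came ahead of Hp (45.2 ± 20.3), Cp (29.5 ± 1.11) and Lcn2 (27.4 ± 6.85), and Orm1 (15.6 ± 6.95) followed Ptx3 (17.3 ± 11.7).

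**Figure D3:**
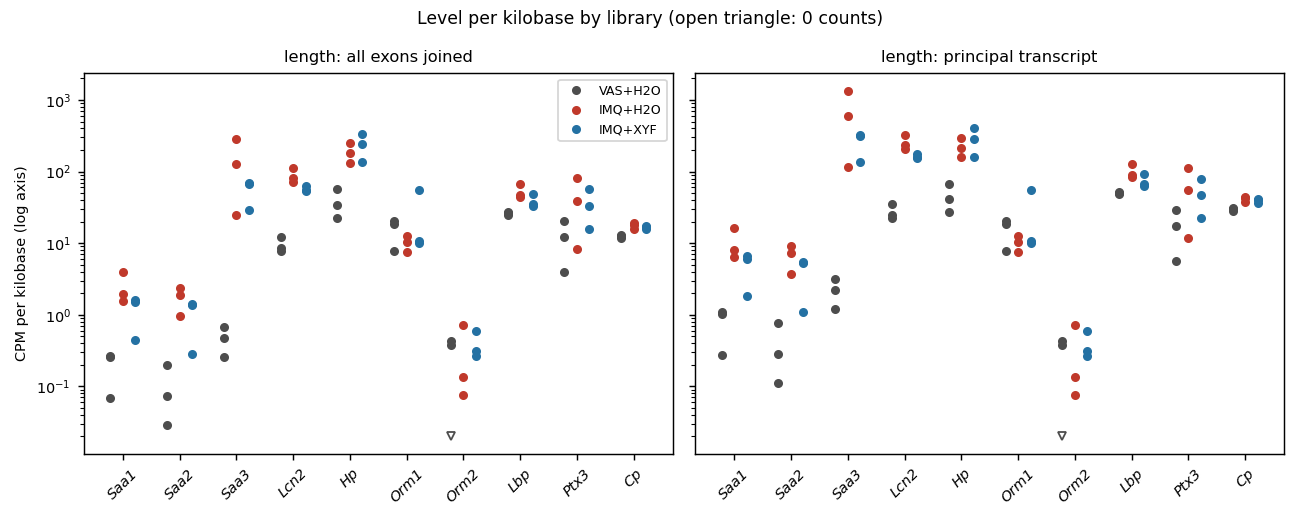
CPM per kilobase (log axis) of the 10 genes in each library, with the joined exons (left) or the principal transcript (right) as gene length; each dot is a library and the open triangle, set at the foot of the axis, a library with no count. With the longer length Hp was highest in IMQ+H2O (187 on average), with the shorter one Saa3 (691).

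Most neutrophil markers moved with the imiquimod groups. The sum over all 14 genes was 7.84 to 27.1 CPM in VAS+H2O, 219 to 685 in IMQ+H2O and 180 to 490 in IMQ+XYF. Most of the sum in IMQ+H2O came from S100a8 (68.0, 83.7 and 227 CPM) and S100a9 (96.6, 107 and 301 CPM). Camp, near the detection limit, was not higher, with means of 0.213 CPM in VAS+H2O and 0.102 in IMQ+H2O. Of the 10 neutrophil genes that were tested, 5 rose in IMQ+H2O against VAS+H2O by edgeR, against 0.994% of all genes called. DESeq2 called 10 of the 14, all higher, against 3.80% of all genes. S100a8, a subunit of calprotectin that inflamed keratinocytes also make, rose by 5.22 (SE 0.76, adjusted p = 0.0247) in the first comparison. Ly6g, the defining surface marker, had no count in any vaseline library and at most 32 in an imiquimod library, and Mpo, Elane and Ltf were likewise too low to test. Of 10 monocyte and macrophage markers, all tested, 1 rose and none fell by edgeR in the same comparison, and DESeq2 called 4, all higher. Their median log2 fold change was 0.54, Adgre1 had 1.26 (adjusted p = 0.0582), and their sum was 543 to 946 CPM in VAS+H2O, 717 to 1016 in IMQ+H2O and 655 to 720 in IMQ+XYF. Within IMQ+H2O, the library highest in the neutrophil sum, the third, was also the highest in Saa1, Saa2, Saa3, Lcn2, Lbp and Ptx3, and the lowest, the first, was lowest in these 6 genes. In bulk tissue, more cells of a type and more RNA per cell cannot be told apart, and the part of neutrophils in the rise of the Saa genes and Lcn2 was not tested.

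Keratinocyte markers were uneven within IMQ+XYF. Their sum over 15 genes was 3907 to 6596 CPM in VAS+H2O, 2626 to 4003 in IMQ+H2O and 4339 to 15812 in IMQ+XYF, with the highest value in the first IMQ+XYF library, the library in which Orm1 and Hp were also highest. The third IMQ+XYF library, next in the keratinocyte sum at 8023 CPM, had the lowest Orm1 of its group (7.79 CPM). In IMQ+H2O against VAS+H2O their median log2 fold change was -0.43, with 5 of the 15 higher and 1 lower without overlap, against 31.5% of all genes. In that comparison edgeR called none and DESeq2 called 4, all higher, against 3.80% of all genes. Krt16, a keratin of stressed epidermis, measured 464, 132 and 742 CPM in IMQ+XYF against 84.7, 129 and 107 in IMQ+H2O. It measured 17.4, 31.3 and 7.15 CPM in VAS+H2O. Between IMQ+XYF and IMQ+H2O 11 of the 15 were higher and none lower at an unadjusted p under 0.05, against 11.7% of all genes. There edgeR called none of the 15 and DESeq2 called 5, against 1.17% of all genes. In IMQ+XYF against VAS+H2O, edgeR called 4, all higher, against 1.20% of all genes. The second IMQ+XYF library, lowest in Saa1, Saa2, Saa3, Lcn2, Hp and Ptx3 of its group, was the lowest of the 3 in the keratinocyte, neutrophil and endothelial sums and the highest in the cartilage sum (3210 CPM against 1171 and 1647). The part of tissue makeup in these values was not tested. The hepatocyte sum was 20.8 to 33.7 CPM in VAS+H2O, 17.9 to 27.8 in IMQ+H2O and 7.53 to 16.3 in IMQ+XYF, with no gene of that list called by edgeR in any comparison.

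**Figure D4:**
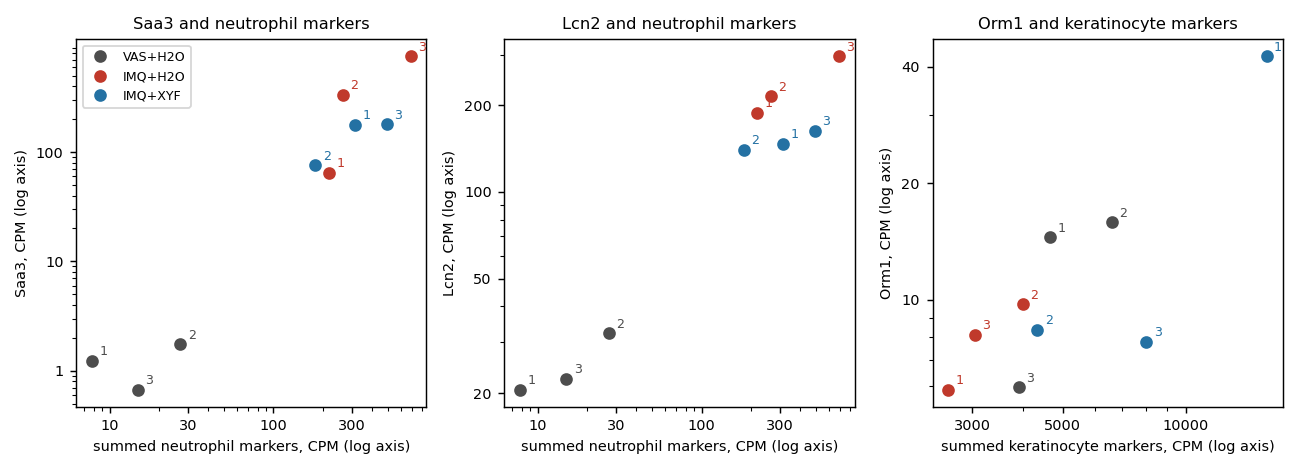
CPM of Saa3 and Lcn2 against the summed CPM of 14 neutrophil markers, and of Orm1 against that of 15 keratinocyte markers, in the 9 libraries (both axes log; digits are replicate numbers). The vaseline libraries lie at neutrophil sums of 7.84 to 27.1 CPM and all others at 180 or above; 1 IMQ+XYF library holds both the highest Orm1 and the highest keratinocyte sum, and the next highest keratinocyte sum goes with an Orm1 of 7.79 CPM.

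The genes with the pattern most like a member over the 9 libraries were found by Pearson's r of log2 CPM among 13675 genes, as a description in which all points share the group structure. They are given for Saa3, Lcn2 and Cp only, and those of the other 7 members are not shown. For Saa3 they included Rac2 (r = 0.993), Lilrb4a (0.990), Ccl6 (0.989) and Mcemp1 (0.987). For Lcn2 they were Fpr1 (0.988), Msr1 (0.986), Mcemp1 (0.984), Stfa2l1 (0.983) and Fpr2 (0.983), and for Cp Slamf9 (0.981), Siglece (0.980), Lst1 (0.972), Rac2 (0.968) and Ftsj1 (0.966). Between members, r was 0.98 for Saa3 with Lcn2, 0.95 for Saa3 with Cp, 0.73 for Saa3 with Ptx3 and 0.017 for Saa3 with Orm1.

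Receptors and partners of these proteins were listed as 23 genes, of which 21 were tested. In IMQ+H2O against VAS+H2O 2 rose and 1 fell by edgeR, against 0.994% of all genes called. DESeq2 called 3 higher and 1 lower, against 3.80% of all genes. Fpr2, the formyl peptide receptor through which serum amyloid A attracts neutrophils, measured 0.485, 0.472 and 0.268 CPM in VAS+H2O and 6.23, 7.18 and 11.3 in IMQ+H2O, a log2 fold change of 4.36 (adjusted p = 0.00478). The related receptor Fpr1, which is also on the neutrophil list, rose by 5.81 (adjusted p = 0.000256). Slc40a1, the iron exporter ferroportin, fell by 1.60 on the log2 scale (adjusted p = 0.0429), from 37.8, 28.4 and 24.8 CPM to 9.58, 8.66 and 11.8.

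The receptors of Lbp, Hp and Lcn2 did not pass edgeR's test in this comparison. Log2 fold changes were 1.34 for Cd14 (adjusted p = 0.170), 1.20 for Tlr4 (0.294), 0.24 for Cd163, the haptoglobin-haemoglobin receptor (0.790), and -0.90 for Slc22a17, a lipocalin 2 receptor (0.135). Between IMQ+XYF and IMQ+H2O none of the 21 was called by edgeR. At an unadjusted p under 0.05, 2 were higher and 2 lower, against 11.7% of all genes. DESeq2 called 1, against 1.17% of all genes. This was Slc40a1, which was higher at 16.7, 30.4 and 14.7 CPM in IMQ+XYF (log2 fold change 1.04, interval 0.38 to 1.69, adjusted p = 0.364 by edgeR and 0.0413 by DESeq2). Fpr1 (5.32) and Fpr2 (3.97) rose in IMQ+XYF against VAS+H2O, the only genes of the list that were called, against 1.20% of all genes.

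Of 34 listed inducers, the cytokines, receptors and transcription factors known to drive acute-phase genes, 33 were tested and none was called by edgeR in any comparison. At an unadjusted p under 0.05, 7 were higher and 4 lower in IMQ+H2O against VAS+H2O, 3 higher and 1 lower in IMQ+XYF against IMQ+H2O, and 11 higher and 2 lower in IMQ+XYF against VAS+H2O, where 20.9%, 11.7% and 18.3% of all genes were under that limit in either direction. DESeq2 called 1, 0 and 1, against 3.80%, 1.17% and 3.23% of all genes. These were Il17a in the first comparison and Il1a in the third, the latter named after its values were seen. Il6 measured 15.5, 107 and 77.4 CPM in VAS+H2O, 41.8, 168 and 135 in IMQ+H2O, and 85.4, 42.3 and 118 in IMQ+XYF, with a log2 fold change of 0.79 (interval -0.82 to 2.40) in the first comparison. Il1b had 1.55 (interval -0.0059 to 3.11, adjusted p = 0.240).

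The intervals of the transcription factors were narrower. In the first comparison the log2 fold change was 0.36 (-0.10 to 0.82) for Stat3, 0.27 (-0.22 to 0.76) for Cebpb, 0.012 (-0.46 to 0.48) for Cebpd and -0.50 (-0.98 to -0.013) for Nfkbiz, the IκB-ζ cofactor. Socs3, the feedback inhibitor that IL-6 induces, had -0.46 (-0.84 to -0.074, adjusted p = 0.176). Il17a and Il22 had no count in any vaseline library. Il17a had 0, 14 and 5 counts in IMQ+H2O and 18, 11 and 7 in IMQ+XYF, and Il22 had 0, 10 and 11 in IMQ+H2O and 0, 24 and 11 in IMQ+XYF.

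Among 36 other positive acute-phase genes, 27 were tested and 4 rose in IMQ+H2O against VAS+H2O, with none falling, while DESeq2 called 10. Of all genes, 0.994% were called by edgeR and 3.80% by DESeq2, in either direction. Serpina3n, a serine protease inhibitor, measured 160, 168 and 130 CPM in VAS+H2O, 621, 826 and 750 in IMQ+H2O, and 804, 353 and 754 in IMQ+XYF, a log2 fold change of 2.26 (adjusted p = 0.0177) in the first comparison. Its neighbour Serpina3m rose by 2.36 (adjusted p = 0.0392), Lrg1, a leucine-rich glycoprotein, by 2.15 (adjusted p = 0.0421) and Cfb, complement factor B, by 1.63 (adjusted p = 0.0301). The median log2 fold change of the 27 was 1.05. Between IMQ+XYF and IMQ+H2O none of the 27 was called by either tool. At an unadjusted p under 0.05, 1 was higher and 2 were lower, against 11.7% of all genes. Serpina3m (2.22), Serpina3n (2.06) and Cfb (1.40) rose in IMQ+XYF against VAS+H2O, where 1.20% of all genes were called, and Lrg1 had 1.68 (adjusted p = 0.0662).

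**Figure D5:**
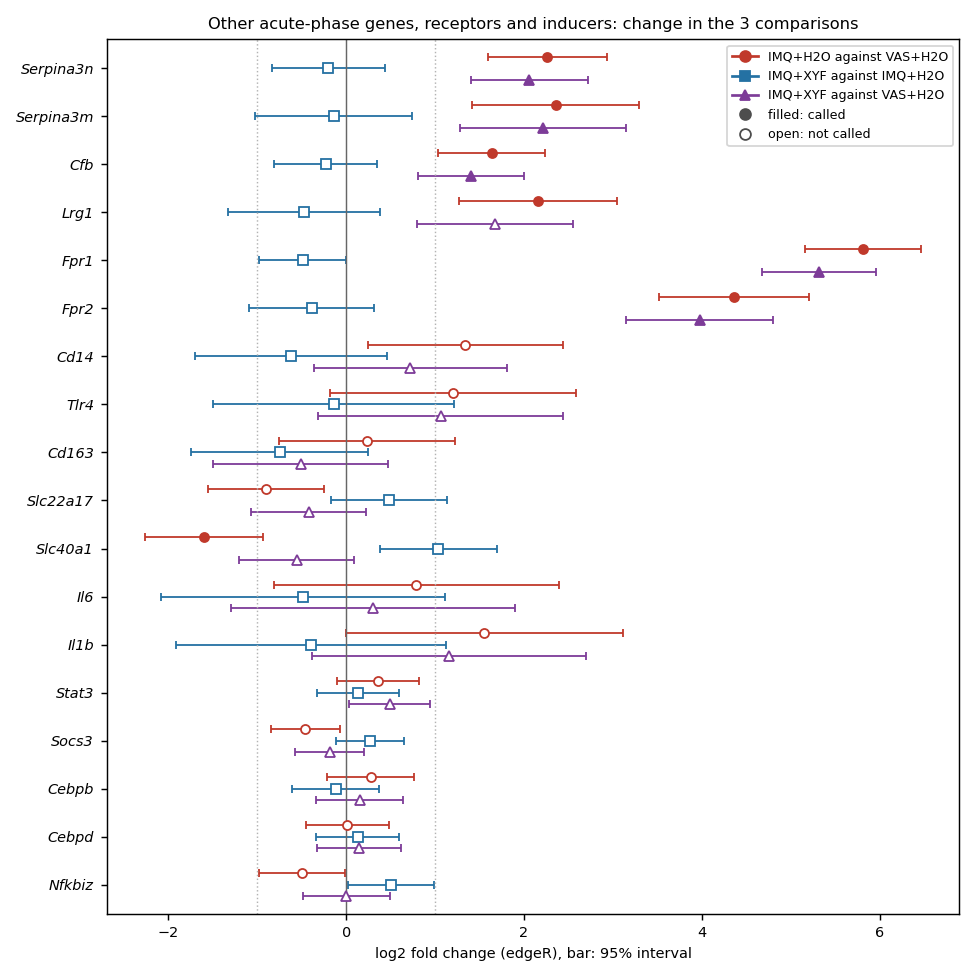
Log2 fold changes (horizontal axis) with 95% intervals of other acute-phase genes, receptors and partners, and inducers in the 3 comparisons; filled symbols were called by edgeR. Fpr1 and Fpr2 rose most, by 5.81 and 4.36 in IMQ+H2O against VAS+H2O, while Il6, Stat3 and Cebpb had open symbols throughout.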

How the data were processed

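Messenger RNA of mouse ear dermis was sequenced in 9 libraries, 3 per group. The deposited table holds raw whole-number counts per Ensembl gene. The authors made these counts from reads aligned with STAR (2.5 in the submitters' processing notes) to GRCm38, and their notes also name FastQC, Cuffnorm and DESeq 1.22.1. The counting tool, its strand setting and its handling of reads with several alignments are not given in the sources used here. These bear on the Saa1 and Saa2 and the Orm1 and Orm2 pairs.

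Counts were scaled by TMM and tested with edgeR 4.0.16 in R 4.3.3 (filterByExpr, 1 quasi-likelihood fit of 3 groups, Benjamini-Hochberg adjustment over 22430 genes). DESeq2 1.42.0, the tool of the study's methods, was an alternative. The fit was tested on simulated counts. Intervals are 95% and use the moderated degrees of freedom. An exact permutation test of 3 against 3 libraries cannot go below p = 0.1 and was not used. Gene lengths and positions are from GENCODE vM21, and promoters from RefSeq (GRCm38.p6). Library pairs of a group differed by far more than sampling noise.

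The 10 genes, the lists and the motifs were chosen with earlier results of these data known. All 10 genes were named. 1 of the genes most like a member in pattern is not reported here. Of the other lists, called genes, at most 8 per list and comparison, and a fixed set of known inducers, receptors and markers were named. The alternatives were another tool, scaling, low-count filter, set of libraries, threshold, summed near-identical genes, a replicate block, another gene length and each library left out.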

Additional observations from a re-analysis of the deposited data

How the results depend on the processing

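The number of the 10 genes called in IMQ+H2O against VAS+H2O was 5, and it was 1 at an adjusted p of 0.01, 2 with a replicate block and 1 to 6 with 1 library left out. In IMQ+XYF against VAS+H2O it was 3, and it was 0 at an adjusted p of 0.01, 1 with a replicate block, 5 with DESeq2 and 1 to 5 with 1 library left out. In IMQ+XYF against IMQ+H2O it was 0 under every alternative run. Over all genes an adjusted p of 0.01 left 13, 0 and 1 called, the replicate block 86, 0 and 54, and DESeq2 gave 952, 222 and 722, against 223, 2 and 270. Fits with fewer libraries or with the block have fewer degrees of freedom. For other changes of call the cause was not tested. Without a minimum fold 308, 2 and 453 genes were called, and with only the compared groups in the fit 496, 1 and 33. Of the 4 other pathway lists, 7 genes were called by edgeR in IMQ+H2O against VAS+H2O and 15 by DESeq2.

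Of 148 alternative log2 fold changes per comparison, 3, 5 and 2 changed sign, all of genes that were not called. In IMQ+H2O against VAS+H2O, Orm2 became -0.021 with the replicate block and ran from -1.42 to 0.70 with 1 library left out. In IMQ+XYF against IMQ+H2O, Ptx3 became 0.21 with the block and ran from -0.80 to 0.60, and Orm2 ran from -0.13 to 1.94. In IMQ+XYF against VAS+H2O, Orm1 ran from -0.58 to 1.11 and Orm2 from -0.034 to 0.94. Titles share replicate numbers, but no label says what these mark, so the block pairs no known animals. The deviations of same-numbered libraries from their group means had r from -0.183 to 0.125 over 9 pairs. With so few libraries per group these values cannot show whether the numbers mark a pairing. With near-identical genes summed, Saa2 and Orm2 have no value of their own. With the principal transcript as gene length, an alternative chosen after seeing the data, the order of genes changed. The levels per kilobase of all members but Orm1 and Orm2 were then higher. Scaling by DESeq2's size factors put the median of all genes at 0.0036, 0.0034 and 0.00093, against -0.023, 0.0054 and -0.024. Depth limited Saa2, Orm2, Il17a and Il22.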

Other observations

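Negative acute-phase genes, whose plasma proteins fall in inflammation when the liver makes them, were listed as 10 genes, of which 7 were tested. None was called by edgeR in any comparison. At an unadjusted p under 0.05, none was higher and 2 were lower in IMQ+H2O against VAS+H2O, 1 was higher and 2 lower in IMQ+XYF against IMQ+H2O, and none was higher and 2 lower in IMQ+XYF against VAS+H2O, where 20.9%, 11.7% and 18.3% of all genes were under that limit. DESeq2 called 0, 0 and 1, against 3.80%, 1.17% and 3.23% of all genes. The last was albumin (Alb), which measured 11.4, 11.3 and 13.4 CPM in VAS+H2O, 11.2, 7.45 and 5.87 in IMQ+H2O, and 3.96, 3.27 and 6.98 in IMQ+XYF.

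Ptx3, Il6 and Il1b were lowest in the same library of each group: the first VAS+H2O library (10.6, 15.5 and 10.9 CPM), the first IMQ+H2O library (22.4, 41.8 and 62.1 CPM) and the second IMQ+XYF library (42.1, 42.3 and 49.0 CPM). Cebpb was lowest in these 3 libraries as well, at 71.6, 87.8 and 94.9 CPM. So were Saa1, Saa2, Lcn2 and Hp, so the pattern was not particular to Ptx3 among the members. These genes were singled out after their values were seen. The same libraries held the smallest summed endothelial markers of their groups, 712, 1589 and 598 CPM. Their neutrophil, monocyte and macrophage, and fibroblast sums were also the smallest of their groups. Their cartilage sums were the largest, at 4228, 1002 and 3210 CPM. The part of tissue makeup in this pattern was not tested.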
